A study of Mus musculus with 12 samples.

Results

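Livers of mice labelled Lix1l knockout were compared with livers of their wild-type (WT) littermates after 12 weeks on a high-fat diet (HFD), begun at 6 weeks of age. These are 6 of the 12 samples of the series, 3 labelled knockout animals (numbers 1, 5 and 6) and 3 WT animals (numbers 1, 2 and 6), each giving 1 library of polyadenylated RNA from snap-frozen whole liver. The comparison covers every gene that reached 1 TPM in 3 or more of the 6 libraries, or 11053 of the 56107 rows of the table. The other 6 animals, 3 of each genotype on a low-fat diet (LFD), enter only where the diets are compared. The labels name a knockout of Lix1l in the animal with no promoter, Cre driver or cell type, and both groups share the diet, the age and the tissue. The extent of the deletion in Lix1l is not stated in the labels. The title of the series ties LIX1L to fatty liver disease and CD36.

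The liver takes up circulating fatty acids, partly through the translocase CD36 and the acyl-CoA synthetases of the FATP family, and either burns them in mitochondria and peroxisomes or stores them as triglyceride in lipid droplets. On a diet rich in fat, hepatocytes load more of these droplets, and PPAR-alpha, a nuclear receptor for fatty acids, drives genes of uptake and oxidation. Hepatocytes also make most plasma proteins, bile acids and glucose, and share the tissue with sinusoidal endothelial cells, resident macrophages called Kupffer cells, and stellate cells.

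Below, values in TPM are listed for labelled knockouts 1, 5 and 6 and then for WT 1, 2 and 6. TPM, the level of a transcript scaled to its length, sums to the same total in each library, so it keeps no count of reads and the libraries' depth cannot be known from it. A log2 change is the labelled knockout minus the WT mean of log2(TPM + 1), with its SE after the ± sign, which understates changes of genes at low level. Adjusted p is from limma with Benjamini-Hochberg adjustment over all 11053 genes, and a gene is called higher or lower, or said to have risen or fallen, where it is below 0.05. Each library is 1 animal by its number, and p-values measure the spread between these animals. Except where the text says otherwise, a called gene given with values below was also called in each alternative that tested it. The alternatives are other processing and leaving out each library. Mitochondrially encoded genes and genes that miss a filter of 5 TPM were not tested in the setting that leaves them out. Calls of the difference between the diets are not covered by these sentences. Where 1 group had at most 1 library at 1 TPM or more, the gene passed the filter on low values through the other group. The call of such a gene is given no weight.

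The level of Lix1l did not separate the groups. Lix1l (ENSMUSG00000049288, chromosome 3, 96601149 to 96626171, + strand, GRCm38) was at 1.92, 0.150 and 1.38 TPM in the livers labelled knockout and 1.18, 1.73 and 0.900 TPM in WT livers. Labelled knockout 1 was the highest of the 6 libraries and labelled knockout 5 the lowest, and the groups overlapped (log2 change -0.17 ± 0.33, adjusted p = 0.708, exact 2-sided permutation p = 0.9, where 3 against 3 cannot give less than 0.1). The sign turned without labelled knockout 5 (log2 change 0.23) and with median-ratio scaling (0.05), after correcting for GC content and length (0.20) and with animal numbers as a block (0.37), and Lix1l passed with array weights (log2 change -0.74, adjusted p = 0.0237). Transcript from undeleted exons counts toward the total of the gene, so it does not check the genotype of these libraries, and every direction below rests on the labels.

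The labelled knockout libraries varied more among themselves than the WT libraries did, with a median SD within the group of 0.312 against 0.194 on the log2 scale. Spearman correlations across genes were 0.931 to 0.952 within the labelled knockouts, 0.949 to 0.970 within WT and 0.801 to 0.893 between the groups. Labelled knockout 1 stood apart in part of its RNA: mitochondrially encoded RNA made up 22.6% of its TPM, against 12.6% and 10.9% in labelled knockouts 5 and 6 and 8.58% to 11.1% in WT. Its genes lay at a median of -0.57 log2 from the WT mean, against -0.16 and -0.12 in the other two. It held the lowest value of its group in 89.9% of the genes that fell. Hepatocyte markers were lower in the labelled knockouts, with a sum over 14 markers of 90533, 108793 and 115487 TPM against 129671, 130276 and 132807 TPM. Of the 14, 8 were called lower (57.1%, against 26.1% of all genes) and none higher, and 1 was lower without WT 1. In bulk tissue, fewer cells of a type and less RNA per cell cannot be told apart.

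Of the 11053 genes, 4175 (37.8%) were called, 1290 higher (11.7%) and 2885 lower (26.1%) in the labelled knockouts. The values of 55.0% of all genes did not overlap between the groups, 39.0% with the labelled knockouts below and 16.1% with them above. Falls were the more common direction at moderate sizes, with 1439 genes lower and 715 higher by more than 1 on the log2 scale. At the far end the balance turned, with 51 genes higher and 27 lower by more than 3. The count was 1826 without WT 1, 2159 without WT 6, and 2866 to 4240 without any one of the other 4. The share of calls that were lower was 69.1%, and it was 47.9% with median-ratio scaling, 55.4% with quantile normalization, 64.5% without mitochondrially encoded genes and 53.6% after correcting for GC content and length. These scalings moved the median of all genes from -0.28 by 0.29, 0.20, 0.07 and 0.23 on the log2 scale, so the groups below are described beside the median of -0.28. Where a list has 1 member called in a direction, leaving out a library often moved that count to 0 or 2.

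**Figure D1:**
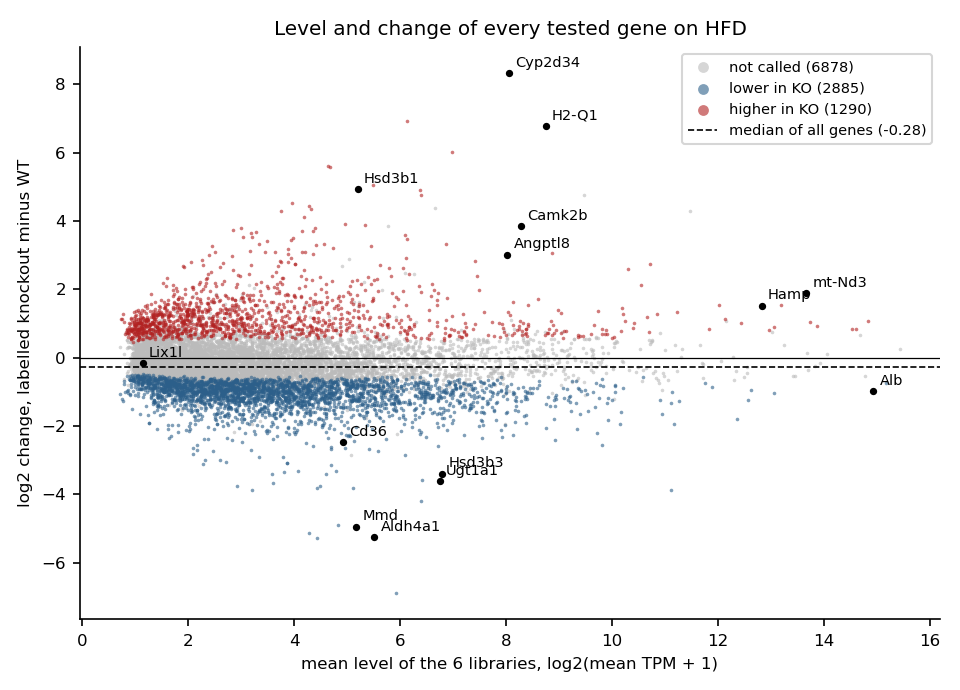
Log2 change (labelled knockout minus WT, log2(TPM + 1)) of the 11053 genes against their mean level in TPM on a log axis, coloured by call, with the dashed line at the all-gene median of -0.28. Calls lie on both sides, with more genes below the line at high levels and the most extreme rises, such as Cyp2d34 and H2-Q1, above it.

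**Figure D2:**
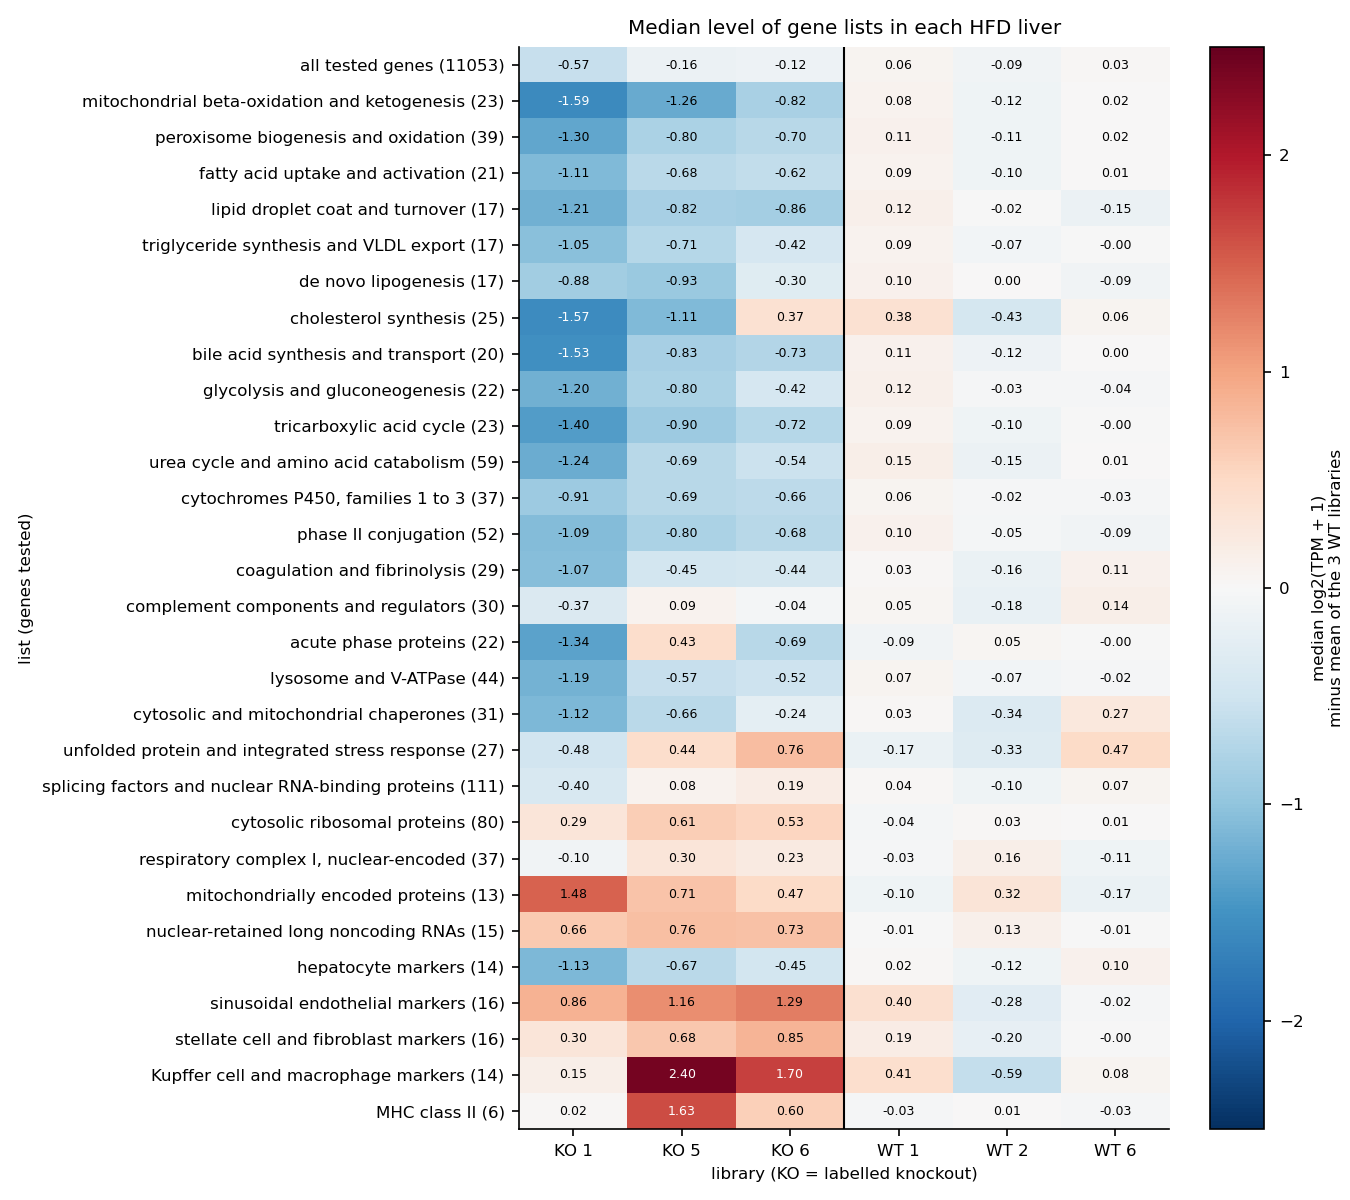
Median log2(TPM + 1) minus the WT mean over the tested members of 29 gene lists and over all genes, in each of the 6 libraries. Oxidation lists are below 0 in each labelled knockout, endothelial markers above 0 in each, and cholesterol synthesis differs in sign between labelled knockouts 1 and 6.

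Fatty acid uptake and activation were lower, led by Cd36. Cd36 (ENSMUSG00000002944, chromosome 5, 17781690 to 17888801, - strand) was at 6.59, 11.99 and 6.69 TPM in the labelled knockouts and 52.8, 58.04 and 39.7 TPM in WT. All 3 labelled knockouts lay below all 3 WT livers, and their highest value, in number 5, was under the lowest WT value, in number 6 (log2 change -2.47 ± 0.27, adjusted p = 0.00143, exact 2-sided permutation p = 0.1, the smallest possible). Over the alternatives its log2 change ran from -2.73 to -2.01 and its adjusted p from 1.23e-06 to 0.0182. Of 21 tested members of the list (22 in the table), 12 fell (57.1%) and 2 rose (9.52%), against 26.1% and 11.7% of all genes, with a median of -0.81. Without WT 1, 7 were called lower. Slc27a2, the very long-chain acyl-CoA synthetase FATP2, was at 376, 421 and 532 against 1194, 1184 and 1218 TPM (log2 change -1.45 ± 0.20, adjusted p = 0.00264). Acsm3, a medium-chain acyl-CoA synthetase, was at 29.4, 25.3 and 24.7 against 70.3, 66.3 and 62.03 TPM (log2 change -1.29 ± 0.19, adjusted p = 0.00286). The 2 members that rose work largely outside hepatocytes: Fabp4, a fatty acid carrier of adipocytes, macrophages and endothelium, at 8.02, 9.96 and 11.6 against 2.74, 2.92 and 1.44 TPM, and Lpl, the lipase that releases fatty acids from plasma triglyceride, at 3.59, 10.02 and 7.14 against 1.92, 1.32 and 1.28 TPM. Fabp1, the abundant carrier inside hepatocytes, overlapped between the groups at 15878, 17828 and 19063 against 14779, 18405 and 15780 TPM (log2 change 0.11, adjusted p = 0.679, chosen after its values were seen).

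Mitochondrial beta-oxidation and ketogenesis had the lowest median of the 63 gene lists. Of 23 members, all tested, 18 fell (78.3%, against 26.1% of all genes) and none rose, with a median of -1.28. Its library medians were -1.59, -1.26 and -0.82 in labelled knockouts 1, 5 and 6, so each lay below the all-gene median of its own library. Cpt1a, which lets fatty acids enter mitochondria as carnitine esters, was at 27.4, 37.7 and 44.6 against 123, 96.99 and 133 TPM (log2 change -1.67 ± 0.24, adjusted p = 0.00281). The chain-shortening enzymes Acadm, at 107, 132 and 155 against 342, 288 and 332 TPM, and Hadh, at 102, 119 and 119 against 344, 286 and 300.4 TPM, had log2 changes of -1.29 and -1.44. Hadha, the large subunit of the trifunctional protein, was at 26.1, 36.1 and 49.1 against 136, 90.05 and 149 TPM. In each of these 4 genes the highest labelled knockout lay below the lowest WT liver. Acad11, an acyl-CoA dehydrogenase, was at 14.6, 36.1 and 44.5 against 146, 108 and 147 TPM (log2 change -2.16 ± 0.37, adjusted p = 0.00501). The ketone body enzyme Bdh1 was at 62.8, 81.4 and 100.1 against 199, 203 and 185 TPM. Cpt2, which acts just after Cpt1a, was not called at 139, 159 and 116 against 107, 99 and 109.6 TPM (log2 change 0.38, adjusted p = 0.154), and was called higher with median-ratio scaling, quantile normalization, the correction for GC content and length and array weights (log2 change 0.51 to 0.74). Cpt2 was chosen after its values were seen.

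Peroxisomal genes were lower too. Of 39 tested members of 40, 31 fell (79.5%, against 26.1% of all genes) and none rose, with a median of -0.89. Without WT 1, 16 were lower, and without WT 6, 18 were. Scp2, the sterol carrier and peroxisomal thiolase, was at 729.6, 963 and 1169 against 3329, 2549.9 and 3018 TPM (log2 change -1.65 ± 0.23, adjusted p = 0.00271). Abcd2, a peroxisomal fatty acyl-CoA transporter, was at 1.25, 1.93 and 2.53 against 7.51, 8.30 and 7.47 TPM, with the groups apart. Amacr, which prepares branched-chain fatty acids and bile acid precursors for oxidation, was at 22.1, 30.1 and 38.8 against 90.4, 75.3 and 89.1 TPM (log2 change -1.49 ± 0.24, adjusted p = 0.00401). The omega-hydroxylases Cyp4a10, at 707, 712 and 1048 against 716, 575 and 1012 TPM, and Cyp4a14, at 161, 339.5 and 543 against 381, 289.9 and 576 TPM, overlapped between the groups (adjusted p = 0.751 and 0.518, chosen after their values were seen). Ppara, the gene of PPAR-alpha, was at 26.6, 35.4 and 35.6 against 64.8, 50.8 and 59.2 TPM (log2 change -0.83, adjusted p = 0.0166), a call lost without WT 1, without WT 6 and with the animal numbers as a block.

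Genes of lipid droplets and of triglyceride handling were lower too. Of 17 tested droplet genes of 20, 11 fell (64.7%, against 26.1% of all genes) and none rose, with a median of -0.92. Without WT 1, 7 were lower. Plin2, the main droplet coat protein of hepatocytes, was at 71.5, 148 and 170.4 against 413, 338 and 383 TPM (log2 change -1.62 ± 0.31, adjusted p = 0.00690). Hsd17b13, a droplet protein of hepatocytes linked to fatty liver disease in humans, was at 65.2, 111 and 138 against 411, 362 and 412 TPM (log2 change -1.97 ± 0.28, adjusted p = 0.00274). In both genes labelled knockout 1 was the lowest and labelled knockout 6 the highest of its group, and still under every WT liver. Pnpla2, the triglyceride lipase ATGL, was at 11.8, 17.7 and 16.2 against 39.9, 40.4 and 30.4 TPM (log2 change -1.23), and Fitm2, which helps droplets form, at 6.98, 8.85 and 8.10 against 21.9, 15.1 and 22.6 TPM (log2 change -1.20). Of 17 tested genes of triglyceride synthesis and VLDL export (20 in the table), 9 fell (52.9%) and 1 rose (5.88%), with a median of -0.71. Without WT 1, 4 were lower, and without WT 6, 5 were. Gpat3, which starts glycerolipid synthesis, was at 0.780, 1.37 and 0.770 against 4.74, 5.43 and 3.29 TPM (log2 change -1.47 ± 0.23, adjusted p = 0.00359). Gpat3 passed the filter on low values through the WT livers, so its call is given no weight. Apob, the protein backbone of VLDL, was at 558, 708 and 717 against 1164, 1100.2 and 1203 TPM (log2 change -0.81, adjusted p = 0.0129), a call lost without WT 1, without WT 6 and with the animal numbers as a block.

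De novo lipogenesis had members called in each direction. Of 17 tested members of 18, 7 fell (41.2%) and 2 rose (11.8%, close to the 11.7% of all genes), with a median of -0.89, and the number lower was 3 without WT 1, 4 without WT 6 or labelled knockout 5, and 11 without labelled knockout 6. Me1, which supplies NADPH for lipogenesis, was at 11.9, 15 and 19.97 against 53.7, 59.8 and 41.8 TPM (log2 change -1.68 ± 0.25, adjusted p = 0.00294). In the other direction, Mlxipl, the glucose-responsive transcription factor ChREBP, was at 36.3, 52.7 and 76.4 against 13.99, 22.1 and 16 TPM (log2 change 1.57 ± 0.30, adjusted p = 0.00636), and Elovl6, a fatty acid elongase, at 18.8, 9.05 and 19.3 against 5.81, 4.47 and 5.59 TPM (log2 change 1.35 ± 0.30, adjusted p = 0.0104). Fasn, fatty acid synthase, was at 26.2, 28.2 and 163 against 59.4, 32.3 and 38.9 TPM, Scd1, the stearoyl-CoA desaturase, at 411, 155 and 313 against 1029, 606 and 279 TPM, and Srebf1, the gene of SREBP-1, at 24.5, 31.2 and 76.3 against 33.05, 22.5 and 18.96 TPM. None of these 3 was called (adjusted p = 0.782, 0.121 and 0.213), and for Fasn and Srebf1 labelled knockout 6 stood above the other 5 libraries. Without WT 6, Scd1 was called lower (log2 change -1.54). They were chosen after their values were seen. Angptl8, a secreted, insulin-induced regulator of lipoprotein lipase, was among the largest rises of abundant genes at 322, 214 and 875 against 43.7, 55.95 and 44.5 TPM (log2 change 3.01 ± 0.44, adjusted p = 0.00299), again highest in labelled knockout 6.

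**Figure D3:**
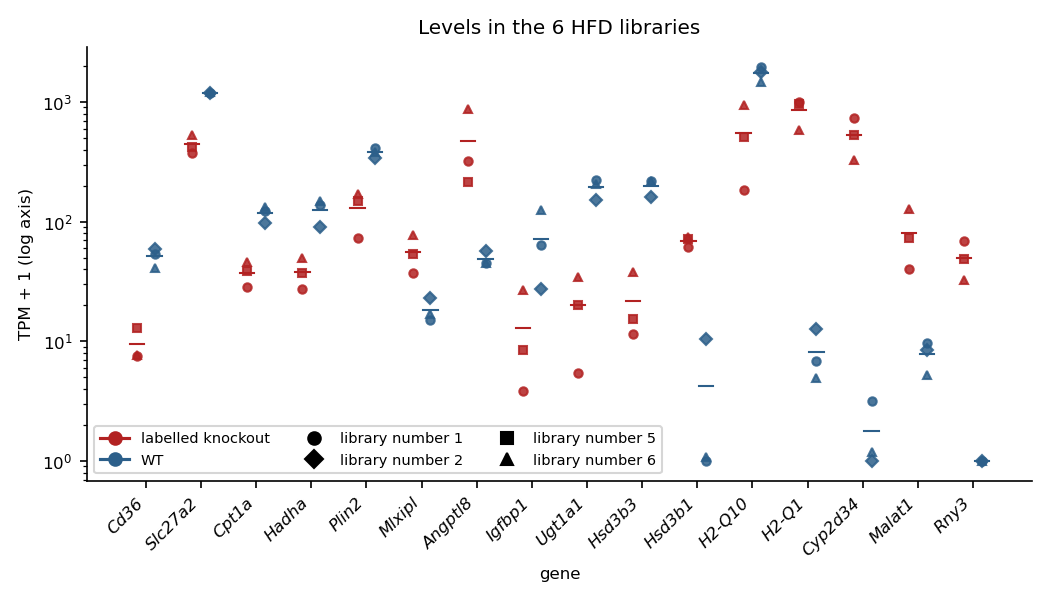
TPM + 1 on a log axis of 16 genes in each of the 6 libraries, with 1 point per library marked by its animal number and bars at the group means. Cd36, Slc27a2, Cpt1a, Hadha and Plin2 are lower, and Mlxipl, Angptl8, Malat1 and H2-Q1 higher, in all 3 labelled knockouts than in all 3 WT livers.

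Cholesterol synthesis differed between the labelled knockout livers themselves. Of 25 members, all tested, 5 fell and none rose, with a median of -0.88, but the library medians were -1.57 and -1.11 in labelled knockouts 1 and 5 and 0.37 in labelled knockout 6. The list summed to 401, 584 and 1405 TPM in the labelled knockouts and 1435, 871 and 1157 TPM in WT, so labelled knockout 6 lay within the WT range and the other two below it. Without labelled knockout 6, 19 members were called lower, and without WT 1 or WT 6, 3 were. Sqle, squalene epoxidase, was at 2.22, 4.17 and 19.9 against 20.4, 10.2 and 19.5 TPM, and Hmgcs1, an early step of the pathway, at 22.5, 30.2 and 97.7 against 99.5, 65.8 and 65.04 TPM, neither called (adjusted p = 0.124 and 0.173, chosen after their values were seen). Without labelled knockout 6 both were called lower, with log2 changes of -2.06 and -1.49.

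Bile acid genes were lower in all 3 labelled knockouts. Of 20 members, all tested, 11 fell (55.0%, against 26.1% of all genes) and none rose, with a median of -0.85. Cyp8b1 (ENSMUSG00000050445, chromosome 9, 121914356 to 121916305, - strand), the sterol 12-alpha-hydroxylase that sets the share of cholic acid, was at 54.01, 63.7 and 99.3 against 326, 264 and 257 TPM (log2 change -1.99 ± 0.25, adjusted p = 0.00227). Abcg8, a subunit of the canalicular sterol exporter, was at 6.06, 8.92 and 7.64 against 30.7, 24.04 and 25.5 TPM (log2 change -1.71 ± 0.22, adjusted p = 0.00223), and Slco1b2, an uptake transporter of bile acids and other organic anions, at 72.4, 131 and 134 against 372, 257 and 345 TPM (log2 change -1.56 ± 0.28, adjusted p = 0.00563). Cyp7a1, the rate-limiting enzyme of bile acid synthesis, was at 8.72, 17.1 and 27.9 against 74.02, 39.2 and 54.4 TPM (log2 change -1.68, adjusted p = 0.0126, chosen after its values were seen), also with no overlap, a call lost with no filter on low values.

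Genes of glycolysis and gluconeogenesis and of the tricarboxylic acid cycle were lower. Of 22 tested genes of glycolysis and gluconeogenesis (28 in the table), 12 fell (54.5%) and 3 rose (13.6%, near the 11.7% of all genes), with a median of -0.80, and 6 were lower without WT 1. Without labelled knockout 5 or WT 6, 1 member was higher. Pcx, pyruvate carboxylase, was at 27.4, 45.5 and 56.05 against 149, 106 and 128 TPM (log2 change -1.60 ± 0.28, adjusted p = 0.00531). Pck1, the PEPCK of gluconeogenesis, was at 257, 288 and 496 against 735, 643 and 1016 TPM (log2 change -1.23, adjusted p = 0.0130), and Fbp1, fructose-1,6-bisphosphatase, at 68.97, 209.8 and 275 against 764, 479 and 797 TPM (log2 change -2.06, adjusted p = 0.0116), both calls lost with no filter on low values. G6pc, glucose-6-phosphatase, was not called at 38.5, 59.8 and 214 against 134, 87.9 and 152 TPM (adjusted p = 0.397, chosen after its values were seen), with labelled knockout 6 above all WT livers, and was called lower without it (log2 change -1.32). Of 23 cycle genes, all tested, 15 fell (65.2%, against 26.1% of all genes) and 1 rose (4.35%), with a median of -1.09. Sucla2, a subunit of succinyl-CoA synthetase, was at 15.5, 23.3 and 26 against 86.4, 53.6 and 81.1 TPM (log2 change -1.73 ± 0.27, adjusted p = 0.00355), and Sdha, the flavoprotein of complex II, at 37.1, 60.03 and 72.4 against 190.3, 132 and 177 TPM (log2 change -1.57 ± 0.28, adjusted p = 0.00531). Mdh1, the cytosolic malate dehydrogenase counted with the cycle here, was at 43.4, 102 and 147 against 414, 353 and 372 TPM (log2 change -2.11 ± 0.39, adjusted p = 0.00589).

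The respiratory chain showed another pattern than the oxidation enzymes. Of 74 tested nuclear-encoded subunits of complexes I, III and IV and the ATP synthase, 12 were higher (16.2%) and 6 lower (8.11%). The shares of all genes were 11.7% and 26.1%, and the median of the subunits was 0.01. In complex I, 8 of 37 rose (21.6%) and 1 fell (2.70%), with 3 higher without labelled knockout 5 and 2 without WT 1 or WT 6. Uqcrq, a small subunit of complex III, was at 2563, 2427 and 1767 against 893, 1180.5 and 856 TPM (log2 change 1.20 ± 0.23, adjusted p = 0.00645), while Uqcrc2, a core subunit of the same complex, was at 43.2, 61.99 and 69.5 against 132, 129.8 and 128 TPM (log2 change -1.17 ± 0.22, adjusted p = 0.00627). Ndufa3 of complex I was at 474, 427 and 341 against 181, 242 and 168 TPM (log2 change 1.07), and Atp5a1, the alpha subunit of the ATP synthase, at 97.5, 173 and 219 against 459, 368 and 431 TPM (log2 change -1.43). The subunits differed by the length of their longest annotated transcript. Of 36 with under 1000 bases, 6 were higher and none lower, and of 38 with at least 1000 bases, 6 were higher and 6 lower. Over all protein-coding genes, 19.9% of 487 short ones were higher and 9.24% lower, against 8.93% and 28.7% of 9328 longer ones, while among the subunits the share higher was 16.7% of the short and 15.8% of the longer ones. No test of these differences was run. Among the 13 proteins encoded by mitochondrial DNA, 7 rose (53.8%) and none fell, with library medians of 1.48, 0.71 and 0.47 in labelled knockouts 1, 5 and 6. These genes hold nearly all of the mitochondrial share of TPM given above, so they are no separate measure of it. With labelled knockout 5, WT 1 or WT 6 left out, 4 were higher. Transcripts of mt-Nd1, a complex I subunit, were at 20326, 11408 and 9834 against 3904, 6418 and 3719 TPM (log2 change 1.54 ± 0.32, adjusted p = 0.00900), a call lost with no filter on low values. The part of transcript length and of mitochondrial RNA in these values was not tested.

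**Figure D4:**
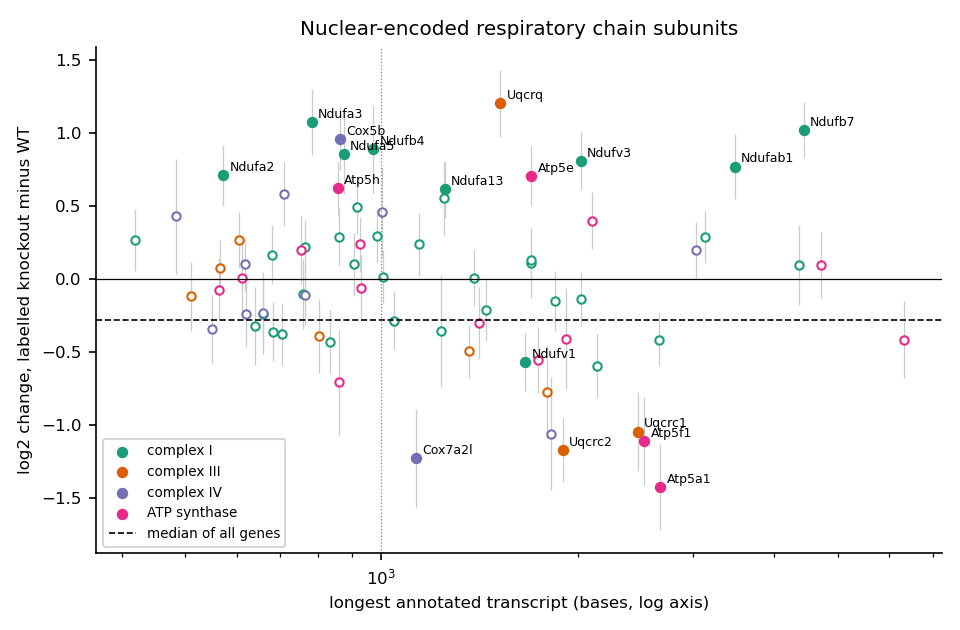
Log2 change (labelled knockout minus WT, bars ± SE) of the 74 nuclear-encoded respiratory subunits against the length in bases of their longest annotated transcript, on a log axis, with called subunits filled. The 6 called lower, such as Uqcrc2 and Atp5a1, are all at 1000 bases or more, and Uqcrq, Ndufa3 and the others called higher lie on both sides.

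Amino acid catabolism and the urea cycle fell with no member rising. Of 59 members, all tested, 33 fell (55.9%, against 26.1% of all genes), with a median of -0.79. Without WT 1, 12 were lower, and without WT 6, 17 were. Tdo2, which opens tryptophan breakdown, was at 71.2, 164 and 272 against 919, 675 and 796 TPM (log2 change -2.42 ± 0.42, adjusted p = 0.00510), and Kmo, a later step of that pathway, at 59.4, 75.6 and 65.8 against 159, 131 and 146 TPM (log2 change -1.11 ± 0.19, adjusted p = 0.00510). Gldc, of the glycine cleavage system, was at 2.66, 5.15 and 7.20 against 28.2, 18.4 and 20.9 TPM (log2 change -2.02 ± 0.31, adjusted p = 0.00355). Mut, the methylmalonyl-CoA mutase that feeds branched-chain carbon into the cycle, was at 9.15, 12.2 and 14.1 against 47.3, 32.5 and 48.05 TPM (log2 change -1.76 ± 0.24, adjusted p = 0.00269). Aldh4a1, a mitochondrial enzyme of proline breakdown, was near 0 in the labelled knockouts, at 0.380, 0.890 and 2.57 against 120.4, 38.4 and 105 TPM (log2 change -5.25 ± 0.47, adjusted p = 6.05e-04). It passed the filter on low values through the WT livers, so its call is given no weight. Gnmt, which uses up S-adenosylmethionine and is abundant in hepatocytes, was at 86.99, 283 and 549 against 1975, 791 and 1724 TPM (log2 change -2.54 ± 0.61, adjusted p = 0.0139), a call lost with no filter on low values and with a robust prior without trend. For Aldh4a1 and Gnmt the order within each group was the same, with labelled knockout 1 and WT 2 the lowest. Of 12 tested one-carbon genes (16 in the table), 7 fell (58.3%) and 1 rose (8.33%). The number lower was 1 without WT 1, 3 without WT 6 and 4 without labelled knockout 5.

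Among secreted liver proteins, the share called lower was 48.3% for coagulation, 35.5% for apolipoproteins and plasma carriers, 31.8% for acute phase proteins and 30.0% for complement, against 26.1% of all genes. Of 29 tested coagulation genes of 32, 14 fell and 1 rose, with a median of -0.62. Plg, plasminogen, was at 292, 400.5 and 388 against 868, 657 and 880.3 TPM, F5, coagulation factor V, at 21.6, 30.99 and 29.4 against 66.8, 53.7 and 66.5 TPM, and Hrg, histidine-rich glycoprotein, at 238, 332 and 338 against 689.9, 600.5 and 688 TPM. Their log2 changes were -1.15, -1.17 and -1.14. F13b, the carrier subunit of factor XIII, had the largest fall of the list at 4.87, 13.5 and 19.99 against 92.7, 53.8 and 97.8 TPM (log2 change -2.72 ± 0.44, adjusted p = 0.00427). The 1 that rose was Tfpi, an inhibitor of the tissue factor pathway made largely by endothelium, at 2.54, 2.76 and 2.37 against 0.460, 0.450 and 0.520 TPM (log2 change 1.27 ± 0.17, adjusted p = 0.00228). Tfpi passed the filter on low values through the labelled knockouts alone, so its call is given no weight. Of 30 tested complement genes of 31, 9 fell and 4 rose, with a median of -0.07 that turned positive with each of the 4 scalings named above. The number higher was 7 without labelled knockout 1 and 2 without labelled knockout 5. Cfi, the complement inhibitor factor I, was at 73.1, 144 and 128 against 330.3, 268 and 366 TPM (log2 change -1.52 ± 0.28, adjusted p = 0.00582), and Mbl2, a mannose-binding lectin, at 113, 183 and 226 against 365, 392 and 436 TPM (log2 change -1.24 ± 0.27, adjusted p = 0.00938). Cfd, adipsin, a complement protease made mainly by adipocytes, was at 4.18, 19.1 and 2.58 against 178, 245 and 50.7 TPM (log2 change -4.19 ± 0.71, adjusted p = 0.00456), with a wide spread within each group. The 16 markers of adipose tissue, muscle and pancreas, Cfd among them, summed to 31.8, 58.5 and 36.3 TPM against 216, 275 and 92.4 TPM. Cfd made up most of each WT sum, and without it the sums overlapped. Of 3 tested markers, Cfd alone was called. Adipoq, the adiponectin gene that defines adipocytes, was at most 0.0800 TPM, and 5 of the 16 (Lep, Ucp1, Prss1, Cpa1 and Ins2) were listed at 0 in all 6 libraries.

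Of 22 acute phase genes, all tested, 7 fell and 1 rose, with library medians of -1.34, 0.43 and -0.69, so labelled knockout 5 went against the other two. Without labelled knockout 5, 11 were lower. Crp, C-reactive protein, was at 48.7, 101 and 112 against 227, 198 and 271 TPM (log2 change -1.48 ± 0.31, adjusted p = 0.00913), and Cp, the copper-carrying ferroxidase ceruloplasmin, at 135, 186 and 230.0 against 424, 455 and 427 TPM (log2 change -1.27 ± 0.23, adjusted p = 0.00559). Saa1, a serum amyloid A, was not called at 23.3, 280.4 and 104 against 261, 543 and 287 TPM (adjusted p = 0.0654, chosen after its values were seen), with labelled knockout 5 inside the WT range, and was called lower without it (log2 change -2.77). The 1 that rose was Hamp (ENSMUSG00000050440, chromosome 7, 30942368 to 30944032, - strand), the iron-regulating hormone hepcidin, at 9730.1, 13255 and 9234 against 4401, 2977 and 3819 TPM (log2 change 1.52 ± 0.24, adjusted p = 0.00346). Hamp shares sequence with Hamp2, and the sum of both was 9860, 13313 and 9358 TPM against 4537, 3139 and 3956 TPM, again with no overlap. Of 30 tested genes of iron, copper and heme handling (31 in the table), 11 fell (36.7%) and Hamp alone rose (3.33%), against 26.1% and 11.7% of all genes. Without WT 1, 6 were lower, and without labelled knockout 1, 3 were higher. The heme synthesis enzymes Cpox, at 20.5, 24.98 and 26.8 against 82.1, 53.7 and 78.7 TPM, and Fech, at 11.5, 24.7 and 25.3 against 68.1, 47.5 and 66.8 TPM, and the iron-sensing aconitase Aco1, at 17.3, 21.8 and 26.9 against 66.8, 47.5 and 60.98 TPM, fell with log2 changes of -1.51, -1.59 and -1.38.

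Drug and hormone metabolism was lower, apart from a few members. Of 37 tested cytochromes P450 of families 1 to 3 (55 in the table), 20 fell (54.1%) and 4 rose (10.8%), against 26.1% and 11.7% of all genes. Their median was -0.76, and 10 were lower without WT 1 and 13 without WT 6. Cyp2f2, a periportal member, was at 71, 95.6 and 124 against 486, 336 and 568 TPM (log2 change -2.25 ± 0.28, adjusted p = 0.00192), and Cyp2j5, an epoxygenase of fatty acids, at 61.4, 99.95 and 118 against 292, 243 and 291 TPM (log2 change -1.60 ± 0.26, adjusted p = 0.00420). Cyp2e1, a pericentral member that oxidizes ethanol, was at 2011, 3997 and 5312 against 8323, 8515 and 7992 TPM (log2 change -1.24, adjusted p = 0.0198), a call lost without WT 1 and with no filter on low values. Against them, Cyp2j9 was at 6.73, 7.68 and 5.79 against 0.560, 1.29 and 0.900 TPM (log2 change 2.02 ± 0.22, adjusted p = 0.00143). Cyp2j9 passed the filter on low values through the labelled knockouts, so its call is given no weight. Of 52 tested conjugating enzymes (72 in the table), 28 fell (53.8%) and 1 rose (1.92%), with a median of -0.81. Ugt3a2 was at 35.3, 41.7 and 57 against 198, 145 and 186 TPM (log2 change -1.97 ± 0.24, adjusted p = 0.00188). Both zones of the lobule held genes that fell, with 12 of 20 periportal genes (median -0.99) and 9 of 20 pericentral genes (median -0.61) called lower and none higher. Without WT 1, 3 pericentral genes were lower.

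Ugt1a1, the enzyme that conjugates bilirubin, was at 4.45, 19.3 and 33.8 against 224, 151 and 205 TPM (log2 change -3.61 ± 0.57, adjusted p = 0.00370). The Ugt1a genes share their last exons, so a member's level is uncertain, but the 9 rows of the locus with any signal summed to 173, 350 and 368 TPM against 662, 620 and 590 TPM, with no overlap. Igfbp1, a secreted IGF-binding protein repressed by insulin, was at 2.88, 7.42 and 25.6 against 62.96, 26.3 and 124 TPM (log2 change -2.66 ± 0.71, adjusted p = 0.0201). Its call was lost without labelled knockout 1 or 5, without WT 1 or 6, with no filter on low values and with a robust prior without trend.

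Promoters of the tested genes were searched for 12 short motifs of known liver and general factors, in RefSeq windows of 250 bases before to 50 after the start (GRCm38.p6), which 7825 tested genes had. The site of HNF1, a homeodomain factor of hepatocytes, was searched on both strands with the 10 letters shown in capitals below, any base being allowed at the seventh counted from the guanine. It occurred in 0.399% of all 32851 windows in the RefSeq table. It was the motif whose tested genes lay farthest from the rest and is shown for that reason, chosen after the values were seen. Of 37 tested genes with it, 17 (45.9%) were lower and 1 (2.70%) higher. Of the genes with the PPAR and HNF4 direct repeat, 13 of 52 (25%) were lower, close to the background. A match describes letters in the window and says nothing on binding. The windows of 4 genes that fell and hold the match are printed 5′ to 3′ on the strand of the gene, with the match in capitals. They are F13b (chr1:139501457-139501756, + strand), Igfbp1 (chr11:7197537-7197836, + strand), Ugt1a1 (chr1:88211709-88212008, + strand) and C4bp, a complement inhibitor (chr1:130661569-130661868, - strand).
F13b: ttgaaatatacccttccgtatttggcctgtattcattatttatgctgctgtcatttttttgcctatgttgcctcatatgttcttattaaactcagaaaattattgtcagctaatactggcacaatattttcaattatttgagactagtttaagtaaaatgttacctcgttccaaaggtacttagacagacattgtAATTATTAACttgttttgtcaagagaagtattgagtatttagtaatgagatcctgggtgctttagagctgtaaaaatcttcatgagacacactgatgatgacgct
Igfbp1: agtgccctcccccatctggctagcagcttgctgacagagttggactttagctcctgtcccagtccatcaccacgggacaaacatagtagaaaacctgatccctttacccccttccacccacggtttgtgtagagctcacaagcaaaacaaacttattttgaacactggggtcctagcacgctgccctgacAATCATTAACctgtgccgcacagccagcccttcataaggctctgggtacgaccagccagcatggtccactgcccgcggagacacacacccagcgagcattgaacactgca
Ugt1a1: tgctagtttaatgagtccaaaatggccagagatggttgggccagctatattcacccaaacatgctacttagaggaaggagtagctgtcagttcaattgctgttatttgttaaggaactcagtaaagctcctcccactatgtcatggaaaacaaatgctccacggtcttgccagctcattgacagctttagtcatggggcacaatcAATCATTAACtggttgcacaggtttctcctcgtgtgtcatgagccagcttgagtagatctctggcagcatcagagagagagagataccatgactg
C4bp: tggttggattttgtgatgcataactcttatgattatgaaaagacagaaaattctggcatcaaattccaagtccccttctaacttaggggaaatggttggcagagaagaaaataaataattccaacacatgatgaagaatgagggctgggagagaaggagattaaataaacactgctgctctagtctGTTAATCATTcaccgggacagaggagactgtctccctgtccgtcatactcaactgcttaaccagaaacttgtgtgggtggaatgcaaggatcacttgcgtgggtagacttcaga
In F13b, Igfbp1 and Ugt1a1 the match is on the opposite strand with its first base in the window at -55, -60 and -45 from the start, and in C4bp it is on the strand of the gene at -64. C4bp was at 43.9, 118 and 105 against 245, 204 and 241 TPM (log2 change -1.48 ± 0.35, adjusted p = 0.0130), a call lost with no filter on low values. Other holders were not called: Gc, the vitamin D carrier of plasma, and Afm, the vitamin E carrier afamin, had adjusted p of 0.661 and 0.131.

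Several large rises on the log2 scale were in genes with close relatives, and for the 4 families summed here the sum overlapped between the groups or moved the other way. H2-Q1, a class I histocompatibility gene, was at 1000.1, 969 and 586 against 5.88, 11.8 and 3.94 TPM (log2 change 6.77 ± 0.36, adjusted p = 3.89e-05), and H2-Q10, its neighbour that encodes a secreted class I protein of liver, at 183, 513 and 952 against 1969.9, 1770.4 and 1460.5 TPM (log2 change -1.94 ± 0.50, adjusted p = 0.0179). The H2-Q10 call was lost without WT 1 and with no filter on low values. The 7 H2-Q rows with any signal summed to 1227, 1590 and 1611 TPM against 2087, 1873 and 1561 TPM, which overlap. Hsd3b1 was at 60.3, 71.3 and 73.01 against 0, 9.55 and 0.0800 TPM and Hsd3b3, another 3-beta-hydroxysteroid dehydrogenase, at 10.6, 14.4 and 36.98 against 217, 161 and 219.6 TPM, while the family sum was lower, at 218, 291 and 355 TPM against 583, 392 and 598 TPM. Cyp2d34 was at 732, 525 and 327 against 2.17, 0 and 0.200 TPM, with 1 WT library listed at 0, and the Cyp2d sum was 1935, 2236 and 2228 TPM against 2924, 2562 and 2624 TPM. Cyp2c69 was at 69.3, 31.4 and 11.2 against 0.210, 0.680 and 0.590 TPM and is uncertain, since 64.9% of its transcript sequence, in words of 31 bases, is found in other genes too. Hsd3b1, Cyp2d34 and Cyp2c69 passed the filter on low values through the labelled knockouts, so their calls are given no weight. The Cyp2c sum was 1141, 1169 and 1418 TPM against 2139, 1639 and 2322 TPM. In each of these 3 enzyme families the sums did not overlap, with the labelled knockouts lower.

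Rny3 (ENSMUSG00000064945, chromosome 6, 47781624 to 47781725, + strand), a small noncoding RNA that binds the Ro protein, was at 67.3, 48.1 and 31.8 TPM in the labelled knockouts and listed at 0 in all 3 WT livers. It was also listed at 0 in all 6 LFD libraries, those labelled knockout included. It passed the filter on low values through the labelled knockouts alone, so its call is given no weight here. No fold can be given against a group at 0. Its annotated transcript (chr6:47781624-47781725, + strand, GENCODE M21) is printed because it separates these 3 libraries from the other 9.
Rny3: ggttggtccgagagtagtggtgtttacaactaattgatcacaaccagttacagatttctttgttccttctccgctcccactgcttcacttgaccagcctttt

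Ribosomal protein genes were higher as a group. Of 80 tested members of 83, 31 rose (38.75%) and 2 fell (2.5%), against 11.7% and 26.1% of all genes. Their median was 0.49, and their summed level was 38997, 45908 and 44353 TPM against 29884, 31110 and 31170 TPM. Higher genes numbered 14 without WT 1, 18 without WT 6, 20 without labelled knockout 5 and 54 without labelled knockout 1. Rpl28 was at 748, 616 and 432 against 165, 182 and 182 TPM (log2 change 1.72 ± 0.23, adjusted p = 0.00251), Rps20 at 267, 362 and 232 against 61.4, 95.5 and 59.5 TPM (log2 change 1.99 ± 0.26, adjusted p = 0.00227) and Rpl37 at 601, 493 and 429 against 165, 184 and 164 TPM (log2 change 1.55 ± 0.20, adjusted p = 0.00227). Ribosomal protein genes have many processed copies in the genome, and these 3 share at most 20.8% of their 31-base words with other genes. Of 66 translation factors, 19 were lower (28.8%, near the 26.1% of all genes) and 3 higher, with 9 lower without WT 1 and 11 without WT 6, and 0 to 5 higher without one library. Of 78 mitochondrial ribosomal proteins, 7 were higher (8.97%) and 11 lower (14.1%), both shares below those of all genes. Without one library the number higher ran from 2 to 10 and the number lower from 3 (without WT 1) to 18 (without labelled knockout 6).

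The share called higher was 53.3% among nuclear-retained long noncoding RNAs and 28.8% among splicing factors, against 11.7% of all genes. Of 76 tested chromatin modifiers and remodellers (92 in the table), 8 were higher (10.5%) and 7 lower, and of 35 tested nuclear receptors and coregulators (46 in the table), none was higher and 11 lower (31.4%). Of 15 tested nuclear-retained long noncoding RNAs (20 in the table), 8 rose and 1 fell, with a median of 0.75 and library medians of 0.66, 0.76 and 0.73, and 5 rose without WT 1. Malat1 was at 39.5, 71.5 and 126 against 8.70, 7.44 and 4.22 TPM (log2 change 3.26 ± 0.41, adjusted p = 0.00213), and Neat1, the scaffold of paraspeckles, at 59.96, 111 and 196 against 9.97, 23.5 and 10.3 TPM (log2 change 2.93 ± 0.45, adjusted p = 0.00342), each in the order 1, 5, 6 among the labelled knockouts. Of 111 tested splicing factors and nuclear RNA-binding proteins (121 in the table), 32 rose and 14 fell, with a median of -0.07 that turned positive with each of the 4 scalings. Those higher numbered 15 without WT 1, 18 without labelled knockout 5 and 19 without WT 6, and those lower 3, 6 and 4. Rbm25, a regulator of splice site choice, was at 29.7, 31.4 and 31.8 against 11.2, 8.13 and 9.49 TPM (log2 change 1.60 ± 0.20, adjusted p = 0.00205), the splicing kinase Clk4 at 35.8, 51.97 and 37.4 against 12.9, 12.7 and 14.5 TPM (log2 change 1.56 ± 0.21, adjusted p = 0.00264), and Srsf11, of the serine-arginine-rich family, at 33.9, 55.6 and 48.7 against 10.2, 11.3 and 15.6 TPM (log2 change 1.81 ± 0.25, adjusted p = 0.00274).

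Lysosomal genes were lower, with 25 of 44 tested members (50 in the table) falling (56.8%, against 26.1% of all genes) and 1 rising (2.27%). Their median was -0.76, and 13 were lower without WT 1 and 14 without WT 6. Lamp1, a major lysosomal membrane protein, was at 41.5, 90.4 and 110.2 against 323, 251 and 312 TPM (log2 change -1.96 ± 0.34, adjusted p = 0.00501). Hexa, a subunit of beta-hexosaminidase, was at 7.19, 11.4 and 10.1 against 31.3, 30.2 and 29.9 TPM (log2 change -1.60 ± 0.22, adjusted p = 0.00251), and Lipa, the acid lipase that frees fatty acids and cholesterol from lipoproteins and droplets, at 12.6, 22.7 and 22.4 against 69.7, 45.8 and 52.98 TPM (log2 change -1.52 ± 0.28, adjusted p = 0.00573).

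Stress and immune lists differed by library. In the unfolded protein response, 5 of 27 tested rows rose (18.5%) and 4 fell (14.8%), against 11.7% and 26.1% of all genes, with library medians of -0.48, 0.44 and 0.76. The number higher was 11 without labelled knockout 1, 1 without labelled knockout 5 or WT 1 and 2 without WT 2, and the number lower was 1 without WT 1 and 2 without WT 6. Syvn1, the ubiquitin ligase HRD1 that clears misfolded proteins from the endoplasmic reticulum, was at 62.4, 109 and 113 against 14.9, 13.5 and 22.6 TPM (log2 change 2.40 ± 0.29, adjusted p = 0.00192). Canx, a chaperone of glycoproteins there, was at 19.6, 31.3 and 40.6 against 101, 60.4 and 141 TPM (log2 change -1.67 ± 0.35, adjusted p = 0.00905). Hspa5, the chaperone BiP, was not called at 217, 595 and 806 against 228, 197 and 493 TPM (adjusted p = 0.261, chosen after its values were seen), and was called higher without labelled knockout 1 (log2 change 1.30). Among 19 tested immediate early genes (24 in the table), 2 rose (10.5%, near the 11.7% of all genes) and 1 fell (5.26%, below the 26.1% of all genes). Their library medians were -0.75, -0.63 and 1.15, and 9 were lower without labelled knockout 6. Without labelled knockout 1, labelled knockout 5, WT 2 or WT 6, 1 was higher. Egr1, an immediate early transcription factor, was at 1.48, 1.83 and 78.3 against 32.5, 19.5 and 8.27 TPM, highest in labelled knockout 6 and lowest in the other two (adjusted p = 0.445, chosen after its values were seen). Without labelled knockout 6 it was called lower (log2 change -2.81).

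Of 36 tested interferon response genes (38 in the table), 5 rose (13.9%, near the 11.7% of all genes) and 2 fell (5.56%, below the 26.1% of all genes). Their median of -0.20 turned positive with 3 of the 4 scalings and was -0.11 without mitochondrially encoded genes. The number higher was 11 without labelled knockout 1, 3 without labelled knockout 5, WT 2 or WT 6 and 2 without WT 1. The number lower was 5 without labelled knockout 6 and 0 without WT 1 or WT 6. Stat2, which carries the type I interferon signal, was at 16.9, 30.7 and 30.1 against 8.16, 8.18 and 8.92 TPM (log2 change 1.47 ± 0.26, adjusted p = 0.00524), and Oas2, an antiviral RNA sensor, at 1.72, 5.58 and 3.45 against 0.470, 0.330 and 0.550 TPM (log2 change 1.57 ± 0.30, adjusted p = 0.00659). Oas2 passed the filter on low values through the labelled knockouts alone, so its call is given no weight. None of 6 tested MHC class II genes of 10 was called, and 4 were higher without labelled knockout 1. Ccl9, a chemokine, was lower at 3.47, 5.68 and 6.38 against 19.1, 23.9 and 31.4 TPM (log2 change -2.07 ± 0.27, adjusted p = 0.00228). Signalling genes of TGF-beta, Wnt, Hippo and Notch were lower in 11 (36.7%) and higher in 2 (6.67%) of 30 tested (40 in the table), against 26.1% and 11.7% of all genes. The number lower was 3 without WT 1, 5 without WT 6 and 7 without labelled knockout 5, and the number higher was 0 without any one of these 3 or of WT 2. The scaffold of the beta-catenin destruction complex, Axin1, was at 0.750, 1.69 and 1.82 against 5.72, 4.56 and 5.69 TPM (log2 change -1.41 ± 0.24, adjusted p = 0.00465), and Tgfbr2, the type II TGF-beta receptor, at 0.450, 0.790 and 0.840 against 2.96, 2.21 and 2.90 TPM (log2 change -1.13 ± 0.19, adjusted p = 0.00480). Tgfbr2 passed the filter on low values through the WT livers alone, so its call is given no weight.

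Markers of sinusoidal endothelial cells were higher. Of 16 tested markers of 18, 14 rose (87.5%, against 11.7% of all genes) and none fell, with a median of 1.14 and 10 to 14 higher without one library. They summed to 135, 154 and 157 TPM against 65.6, 44.2 and 55.9 TPM. Fcgr2b, the inhibitory Fc receptor of this endothelium, was at 20.3, 20.9 and 18.1 against 6.62, 3.28 and 3.76 TPM (log2 change 1.95 ± 0.25, adjusted p = 0.00227), Eng, endoglin, at 13.2, 16.03 and 16.8 against 5.86, 3.17 and 3.86 TPM (log2 change 1.65 ± 0.24, adjusted p = 0.00297) and Egfl7, a secreted endothelial factor, at 23.2, 27.4 and 26.9 against 9.71, 9.35 and 6.94 TPM (log2 change 1.48 ± 0.21, adjusted p = 0.00275). All 3 genes were higher in each labelled knockout than in each WT liver. Stellate cell and fibroblast markers were higher in 8 and lower in none of 16 tested (25 in the table), with sums of 246, 302 and 284 TPM against 121, 92.9 and 101 TPM. Without WT 6, 2 were higher, and without labelled knockout 5, labelled knockout 6 or WT 2, 4 were. Ecm1, an extracellular matrix protein, held a large part of that sum, at 164, 179 and 131 against 39.4, 42.5 and 35.9 TPM (log2 change 1.97 ± 0.20, adjusted p = 9.92e-04). Without Ecm1 the sum of labelled knockout 1 was near that of WT 1, so for labelled knockout 1 the gap rests on this gene. The sums of labelled knockouts 5 and 6 stayed above every WT sum without it. Vim, vimentin of mesenchymal cells, was at 7.86, 11.4 and 14.2 against 3.54, 3.56 and 4.75 TPM (log2 change 1.27 ± 0.25, adjusted p = 0.00738).

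Kupffer cell and macrophage markers were higher in labelled knockouts 5 and 6 and within the WT range in labelled knockout 1. Of 14 tested markers of 17, 6 rose (42.9%) and 1 fell (7.14%), against 11.7% and 26.1% of all genes. Their library medians were 0.15, 2.40 and 1.70, and they summed to 93.2, 527 and 306 TPM against 151, 77.5 and 111 TPM. The number higher was 11 without labelled knockout 1, 2 without labelled knockout 5 or WT 2 and 3 without WT 6. Clec4f, a lectin of Kupffer cells, was at 20.6, 132 and 77.1 against 20.8, 6.22 and 11.3 TPM (log2 change 2.29, adjusted p = 0.0223), with labelled knockout 1 at the level of WT 1. Its call was lost without labelled knockout 5, without WT 2, with no filter on low values and with a robust prior without trend. Timd4, a receptor of resident macrophages for dying cells, and Cd68, a lysosomal protein of macrophages, were higher in all 3, at 3.21, 6.98 and 2.98 against 1.02, 0.190 and 0.560 TPM and 3.66, 12.5 and 8.07 against 1.18, 2.01 and 0.890 TPM (log2 changes 1.72 and 1.84). Timd4 passed the filter on low values through the labelled knockouts, so its call is given no weight. Igkc, the immunoglobulin kappa constant region of B and plasma cells, was at 45.8, 78.4 and 65.8 against 18.9, 13.4 and 13.3 TPM (log2 change 1.97 ± 0.26, adjusted p = 0.00227). The part of these markers in the interferon, complement, Fabp4, Lpl and Tfpi values above was not tested.

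**Figure D5:**
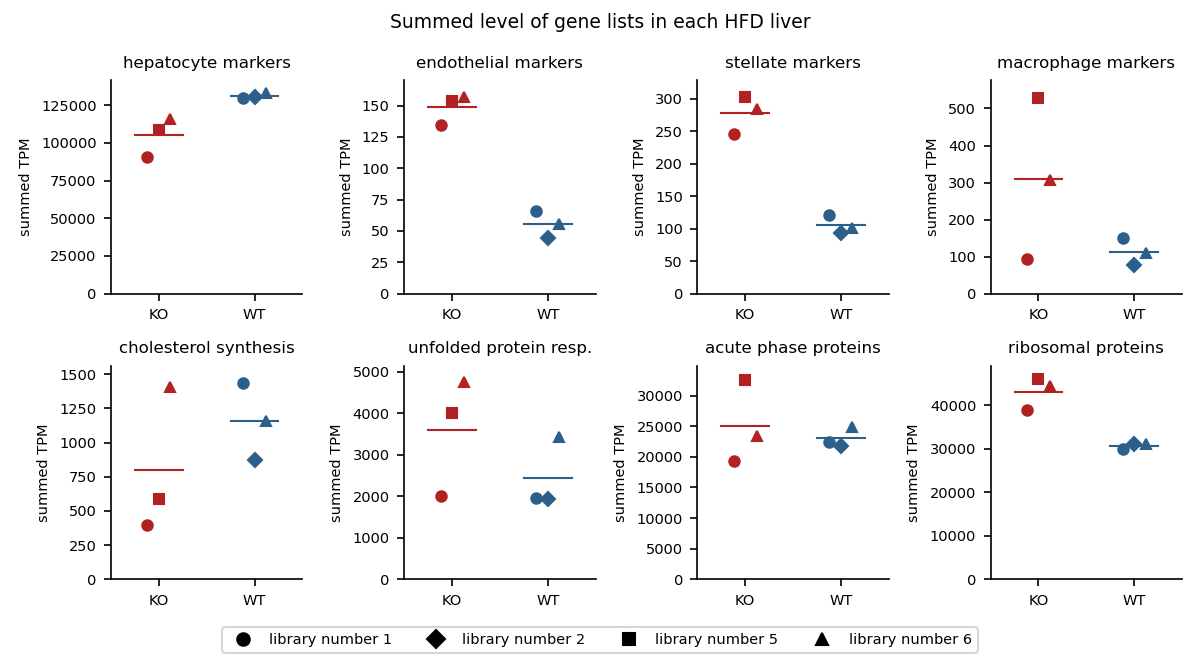
Summed TPM of 8 gene lists in each of the 6 libraries, with 1 point per library marked by its animal number and lines at the group means. Endothelial, stellate and ribosomal sums are higher in all 3 labelled knockouts, hepatocyte markers lower in all 3, and macrophage markers and cholesterol synthesis overlap with WT. For labelled knockout 1 the gap in the stellate sum rests on Ecm1.

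Several of the largest changes were in genes outside the lists. Mmd, a membrane protein first described in maturing macrophages, was at 0.750, 1.08 and 1.42 against 93.7, 31.6 and 81.3 TPM (log2 change -4.94 ± 0.38, adjusted p = 2.17e-04). Gbe1, the branching enzyme of glycogen synthesis, was at 4.14, 9.21 and 20.7 against 72.8, 48.8 and 48.9 TPM (log2 change -2.44 ± 0.46, adjusted p = 0.00620). In the other direction, Cep85, a centrosomal protein, was at 998, 916 and 568 against 68.5, 136 and 92.2 TPM (log2 change 3.06 ± 0.31, adjusted p = 9.48e-04), and Coro2b, an actin-binding coronin, at 99.4, 145 and 94.9 against 13.3, 22.7 and 16.5 TPM (log2 change 2.63 ± 0.26, adjusted p = 8.93e-04). Camk2b, a subunit of a calcium-dependent kinase best known in neurons, was at 739, 579 and 364 against 14.3, 149 and 21.3 TPM (log2 change 3.86 ± 0.73, adjusted p = 0.00640), with WT 2 well above the other WT livers. C4a, a complement component, was at 99.7, 89.1 and 64.1 against 8.04, 16.4 and 12.7 TPM (log2 change 2.70 ± 0.28, adjusted p = 0.00123), and the sum of C4a and its near copy C4b was 828, 1405 and 750 TPM against 605, 639 and 581 TPM.

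On LFD, 12 of the same genes (0.109%) were called between livers labelled knockout and WT in a fit of all 12 libraries. The difference of the genotype changes between the diets, the interaction, was called for 1346 genes (12.2%). Cd36 was at 5.93, 7.29 and 18.4 TPM in LFD livers labelled knockout (2, 4 and 5) and 16.1, 14.4 and 10.7 TPM in WT LFD livers (4, 7 and 8), which overlap, and its interaction was called (log2 difference -1.98, adjusted p = 0.0338). That call was lost without any one of 7 of the 12 libraries (labelled knockouts HFD 1 and LFD 5, WT HFD 1, 2 and 6, WT LFD 7 and 8), with adjusted p of 0.0509 to 0.0911. It was also lost with no filter on low values (adjusted p = 0.0832) and with the animal numbers as a block (log2 difference -1.78, adjusted p = 0.447). Angptl8 was at 115, 63.1 and 22.9 TPM against 39.8, 244 and 133 TPM on LFD, and its genotype changes differed between the diets (log2 difference 3.99 ± 0.99, adjusted p = 0.0315).

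The genes called lower and higher also differed in kind. Of 9815 protein-coding genes, 27.7% were lower and 9.48% higher, while of 318 rows not in the annotation, 9.75% were lower and 37.7% higher. Such rows can be loci assembled by the authors' software or Ensembl identifiers that the annotation lacks. Antisense transcripts, without stated strand in the counting, were higher in 24.9% and lower in 15.3% of 177. Among protein-coding genes with annotation, the share lower went from 17.6% in the fifth with the lowest mean level to 35.2% in the fifth with the highest. By GC content, the share lower was 32.4% in the fifth with the least GC and 17.5% in the fifth with the most. In promoters, a low ratio of observed to expected CpG (below 0.4) was found for 22.9% of 711 genes that rose, 13.96% of 2157 that fell and 12.4% of all tested genes with a window.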

How the data were processed

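RNA-seq of 6 HFD livers was used, 3 labelled Lix1l knockout and 3 WT, with the 6 LFD livers for the diet contrast. Per the labels' protocols, a TruSeq kit was used on polyadenylated RNA of frozen liver. HISAT2 and StringTie were used with build mm10, per the submitters' processing notes. No source used here gives their versions or the handling of strand. As deposited, the authors' data are 1 table of TPM values with 56107 rows, 55487 with an Ensembl identifier and 620 loci assembled from the reads. TPM keeps no counts, so depth is unknown and no counting interval was computed. The authors' group means differed from means of the libraries by at most 3.33e-05 TPM, which also tied columns named differently from the labels to the labelled knockouts.

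Rows with at least 1 TPM in 3 of the 6 libraries were fitted as log2(TPM + 1) in limma 3.58.1 (R 4.3.3), using 1 mean per group, 4 residual degrees of freedom, a trended empirical Bayes prior and 2-sided tests. LFD and interaction contrasts came from a fit of 12 libraries with 8 residual degrees of freedom. Exact permutation tests were run for Cd36 and Lix1l. Positions and lengths are from GENCODE M21 (GRCm38), promoters from RefSeq (GRCm38.p6). A gene is called uncertain if 50% or more of its 31-base words are shared with other genes. Plots used Python 3.11.15 and matplotlib 3.10.9.

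The comparison, its 63 gene lists and the tests were chosen with earlier results of these data known. The genes named were Cd36 and Lix1l, the 10 largest rises and falls without overlap (at least 5 TPM in the higher group, or at least 10 TPM in both groups), and, by lowest p, 6 members per list, or all members of lists of 12 or fewer. The rule named 366 genes, from which those printed were picked with their values known, and some are not reported here. Lists are described by counts and medians, with no set test. Alternatives were pseudocounts of 0.1 and 0.5 TPM, no filter, a filter of 5 TPM, median-ratio scaling, quantile normalization, leaving out mitochondrially encoded genes, a correction for GC content and length, 1 spread over 12 libraries, a robust prior, array weights, a block for the animal number, and omission of each library.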

Additional observations from a re-analysis of the deposited data

Results flagged for a closer look

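The difference of the genotype changes between the diets (change on HFD minus change on LFD, limma on all 12 libraries, adjusted over 11053 genes, of which 12.2% were called) was examined for Cd36, Lix1l and the largest rises and falls, 36 genes in all. For 26 of them the difference passed the test, and these are listed because their genotype changes differ between the diets. Since the genes were chosen for their change on HFD, a difference in that direction is favoured by the choice. Of the 26 calls, 3 held under every alternative and with each library left out, that of H2-Q1 among them. The others were lost or turned sign in at least 1 of these settings. Rny3 and n-R5s139 were listed at 0 in all WT livers on HFD and passed the filter on low values through the labelled knockouts alone, so their calls and the stability of these are no support. Mir703, Hsd3b1, Cyp2d34 and Cyp2c69 had at most 1 WT liver on HFD at 1 TPM or more and passed it through the labelled knockouts too. Aldh4a1 had at most 1 labelled knockout on HFD at 1 TPM or more and passed it through the WT livers. The calls of these genes are no support either.

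Among metabolic enzymes and carriers, falls on HFD beyond LFD had log2 differences of -1.98 for Cd36 (adjusted p = 0.0338), -3.77 for the retinol dehydrogenase gene Rdh9 (0.0140) and -4.12 for Hsd3b3 (0.0273). On LFD the change of Hsd3b3 was 0.74. Further log2 differences were -5.54 for Aldh4a1 (0.0140), -2.53 for Tdo2 (0.0243), -2.95 for Gnmt (0.0352) and -2.87 for Gbe1 (0.0207). For the secreted proteins the values were -2.57 for F13b (0.0245), -3.92 for Igfbp1 (0.0288) and -4.02 for Cfd (0.0241). Ugt1a1 was at -3.50 (0.0214), the aldo-keto reductase gene Akr1c13 at -2.72 (0.0129), and Gabarapl1, of the autophagy machinery, at -1.90 (0.0163). Falls of genes with near copies or of other function were -4.70 for Mmd (0.00910), -5.06 for Tmem254c (0.00538), -3.07 for Pdf (0.0302) and -3.35 for Rnaset2a (0.0129).

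Rises on HFD beyond LFD were 3.99 for Angptl8 (0.0315), with a change of -0.97 on LFD, and 2.47 for Neat1 (0.0409). In gene families they were 5.80 for H2-Q1 (0.00727), 8.90 for Cyp2d34 (0.0375), 5.71 for Cyp2c69 (0.0227) and 6.74 for Hsd3b1 (0.0171). Small RNAs gave 5.58 for Rny3 (6.19e-06), 9.16 for Mir703 (0.0384) and 8.55 for the 5S ribosomal RNA gene n-R5s139 (0.0141). The values for Rny3, listed at 0 in the other 9 libraries, and for n-R5s139 depend on the pseudocount and are no folds. Groups of 3 livers were too small for a test of single outlying samples.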

How the results depend on the processing

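Of 2384 pairs of a named gene and an alternative, over 133 genes, 2318 kept direction and side of the threshold, and 103 genes did so under every alternative run. The 4175 called genes (1290 higher, 2885 lower) became 2501 with no filter on low values (1454 lower), where 24156 rows shared the adjustment, and 7263 with array weights (2702 higher, 4561 lower). The number higher was 734 with a filter of 5 TPM, where 6622 rows were tested, 2496 with median-ratio scaling, 2212 with quantile normalization and 2272 with the correction for GC content and length, and the cause was not tested. Without one library the calls ran from 1826 to 4240, those higher from 734 to 1654 and those lower from 1092 to 3094. The interaction was called for 1346 genes, and for 328 with no filter, 4785 with array weights and 70 (without WT HFD 1) to 2124 (without KO LFD 4) without one library. It was called for 72 without WT LFD 8, 144 without WT HFD 6, 315 without WT LFD 7, 412 without KO LFD 5, 453 without KO LFD 2, 715 without KO HFD 5 and 885 without KO HFD 1. The Cd36 interaction lost its call with no filter (-1.98) and stayed between -2.27 and -1.53 without one library.

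Lix1l turned sign with median-ratio scaling (0.052), the GC and length correction (0.20) and without KO HFD 5 (0.23; from -0.44 without one library), passed with array weights (-0.74), and its interaction turned with array weights (-0.26) and without KO HFD 1 (-0.091, against 0.58 without KO HFD 5). Genes that were not called turned sign too: Cyp4a10 with array weights (-0.11), without KO HFD 6 (-0.074) and without WT HFD 2 (-0.075), with 0.33 at the other end, Cyp4a14 with the GC and length correction (0.051) and without KO HFD 1 (0.11, against -0.77 without KO HFD 6), Fabp1 with quantile normalization (-0.032), Fasn with array weights (-0.46) and without KO HFD 6 (-0.61, against 0.68 without KO HFD 1), and Gc with median-ratio scaling (0.26) and the GC and length correction (0.27).

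The HFD groups share animal numbers 1 and 6. Deviations of same-numbered livers had correlations of -0.105 and 0.0937 across genes, and those of the other pairs ran from -0.179 to 0.139. The labels give the numbers no meaning beyond the animal. Whether same-numbered livers share more than a number cannot be told from 2 such pairs. With the replicate block, which leaves 1 residual degree of freedom, 2652 genes were called (793 higher, 1859 lower) and 30 for the interaction, with -1.78 for Cd36, and Lix1l was at 0.37. A count model was planned if counts were given and was not run, since the table holds TPM. The unknown depth limits what can be said of genes near 1 TPM, and 3 livers a group limit the precision of every value.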

Other observations

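Of 34 rows of 5S ribosomal RNA with any signal, 10 were tested and 2 were called higher, and their sum was 2416, 807 and 1275 TPM in labelled knockouts 1, 5 and 6 and 497, 642 and 390 TPM in WT 1, 2 and 6. The 4 alpha and beta globin rows, RNA of red blood cells, summed to 473, 911 and 265 TPM against 337, 189 and 278 TPM, which overlap. Major urinary protein rows, 20 tested of 22 with any signal, summed to 95965, 93510 and 120151 TPM against 113582, 88730 and 125799 TPM, which overlap, while 6 single members were called higher and 3 lower. The 5 Serpina1 rows, for alpha-1-antitrypsin, summed to 12110, 13888 and 16462 TPM against 21962, 16521 and 26646 TPM. Rows with no annotation held 1.10%, 0.935% and 1.24% of TPM in the labelled knockouts and 0.660%, 0.749% and 0.536% in WT.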
